A study of Mus musculus with 9 samples.

Results

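The genes described here are 10 heat shock and chaperone genes of the mouse hippocampus, namely Hsp90aa1, Hsp90ab1, Hspa1a, Hspa1b, Hspa5, Hspa8, Hspd1, Hspe1, Hsph1 and Dnajb1. They were found by symbol among the 54532 genes of the deposited count table, all 10 were present, and all 10 passed the filter on low counts that left 19782 genes for testing. All were brought together with earlier results of these data known. Of the 10, 8 were listed for their place in the cytosol, the endoplasmic reticulum or mitochondria. Hsp90ab1 and Hspd1 were chosen by an earlier call of higher levels in the same comparison, so their differences are given as a description and with no test.

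All 9 mice were N4 Ube3a m-/p+ animals, which carry a mutated maternal copy of Ube3a and an intact paternal copy, after 4 generations of backcrossing to 129Sv/Ev. These mice model Angelman syndrome, and since both groups carried the mutation there was no wild-type group and Ube3a could not check the labels. On postnatal day 21 the mice received an intracerebroventricular injection of Ant-134, a locked nucleic acid oligonucleotide against the microRNA miR-134 (5 mice), or of a scrambled oligonucleotide, Scr (4 mice). The mice were tested for audiogenic seizures, which are set off by loud sound, on days 22, 24 and 26, and 24 h after the last test the brain was removed. Whether and how strongly each of these mice seized was not analysed here, so a difference in seizures between the groups cannot be told apart from the treatment. Mice that died before the brain was removed could not be sampled. The study reported a tendency toward better survival with Ant-134 that was not significant, and its part in the levels was not tested. Each library was made from poly-A-selected RNA of the hippocampus of 1 mouse, taken from the injected side. The libraries therefore hold no measure of mature miR-134, and the sex of these mice was not used here.

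Chaperones bind unfolded or partly folded proteins and help them reach or regain their shape, most of them by cycles of ATP hydrolysis. Heat shock factor HSF1 induces the cytosolic set when misfolded proteins accumulate, and seizures are a known inducer of Hspa1a and Hspa1b in brain. Neurons keep a high constitutive supply of Hspa8 and of both HSP90 proteins, whereas the inducible Hspa1a and Hspa1b are low at rest.

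Between 28583298 and 38431058 gene-assigned reads made up each Ant-134 library and between 31985959 and 41978113 each Scr library. Across all genes, 0 of 19782 passed an adjusted p of 0.05 in edgeR's quasi-likelihood test and 827 passed unadjusted, while DESeq2 called 1027 unadjusted and 16 after adjustment. In edgeR 17 genes passed adjustment without Ant-134 mouse 1, and at most 1 did when any other mouse was left out. The smallest adjusted p was 0.0900 and the median log2 fold change of all genes was 0.0026. Markers of neurons, CA1, CA3 and dentate granule cells were above 0 in every library, with summed neuron markers between 4605 and 5202 CPM (counts scaled to library size by TMM) in Ant-134 mice and between 4686 and 4880 CPM in Scr mice. The dissections varied in neighbouring tissue, with summed choroid plexus markers from 67.5 to 2583 CPM in Ant-134 mice and from 79.5 to 2033 CPM in Scr mice. Microglial markers summed to between 229 and 281 CPM in Ant-134 mice and between 279 and 322 CPM in Scr mice. Meningeal fibroblast markers summed to between 81.8 and 143 CPM in Ant-134 mice and between 124 and 165 CPM in Scr mice. No gene of these lists was at 0 in any library. The part of tissue composition in the results was not tested, and in bulk tissue fewer cells of a type and less RNA per cell cannot be told apart.

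The 10 genes spanned a wide range of levels when scaled to gene length as FPKM (mean ± SD over all 9 mice). Hsp90ab1, the constitutive cytosolic HSP90, was the most abundant at 546 ± 19.7 FPKM and held rank 29 among the 37454 genes with any count. Hspa8, the constitutive cytosolic HSP70, followed at 228 ± 33.1 FPKM and Hsp90aa1, the stress-responsive HSP90, at 212 ± 13.3 FPKM. These neighbours in the order did not differ beyond their spread, since Hspa8 was the higher of the pair in 5 of 9 mice. Next came 3 genes close together, the mitochondrial chaperonin Hspd1 at 60.3 ± 3.24 FPKM, the endoplasmic reticulum HSP70 Hspa5 at 54.2 ± 4.32 FPKM and the co-chaperonin Hspe1 at 49.3 ± 2.53 FPKM. The ranges of neighbours in this order overlapped, although in 8 of 9 mice each was above the next, while the ranges of Hspd1 and Hspe1 did not overlap. These orders hold for FPKM, which divides by the deposited gene length, and that can exceed the transcript length. Deposited lengths were 1474 bases for Hspe1, 2642 for Hspd1, 4301 for Hspa8 and 3931 for Hsp90aa1. Their longest coding transcripts in GENCODE M21 had 774, 2423, 2394 and 3281 bases. Levels per transcript length were not computed, and the order of close genes could differ there. Hsph1, a nucleotide exchange factor of HSP70, lay at 36.4 ± 3.23 FPKM and Dnajb1, an HSP40 co-chaperone, at 13.3 ± 1.42 FPKM. The inducible pair was at the low end, with Hspa1b at 2.92 ± 0.425 FPKM and Hspa1a at 1.54 ± 0.202 FPKM, and Hsp90ab1 was 355.6-fold above Hspa1a. Of the 150-base windows of the Hspa1a transcript 46.0% occur in transcripts of other genes, as do 40.5% of those of Hspa1b and 0% of those of Hsp90ab1. How such reads were counted is not given in the sources used here, so the levels of the pair and this ratio are uncertain.

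**Figure D1:**
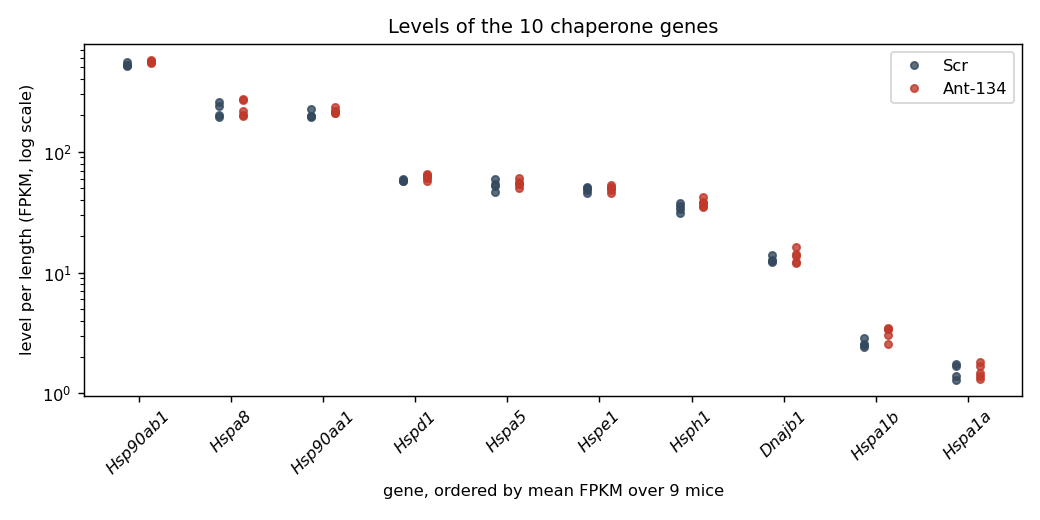
Level per length of the 10 chaperone genes (FPKM, log scale) in each of the 4 Scr mice (dark points) and the 5 Ant-134 mice (red points), with genes ordered by their mean over all 9 mice. The order runs from Hsp90ab1 at a mean of 546 FPKM to Hspa1a at 1.54 FPKM, and within each gene the points of the groups overlap.

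The groups overlapped in both HSP90 genes, and Hsp90aa1, the one of the pair that could be tested, did not pass. HSP90 holds kinases, steroid receptors and other clients in a state ready for activation. Hsp90ab1 stood at 1695, 1652, 1676, 1749.95 and 1671 CPM in Ant-134 mice 1 to 5 and at 1596, 1598, 1562 and 1689 CPM in Scr mice 1 to 4. Only Ant-134 mice 1 and 4 exceeded Scr mouse 4, whose level lay above those of the other 3 Scr mice. Hsp90ab1 had a log2 fold change of 0.068 (SE 0.038), which is a difference of 4.8%. Hsp90aa1 measured 858, 864, 830.3, 932 and 837 CPM in Ant-134 mice and 779, 777, 793 and 894 CPM in Scr mice. All 5 Ant-134 mice were above Scr mice 1 to 3, and Scr mouse 4 was above all Ant-134 mice but mouse 4. Hsp90aa1 had a log2 fold change of 0.092 (SE 0.051) with an unadjusted p of 0.0940 and an adjusted p of 0.998 in edgeR. It was 0.14 with an unadjusted p of 0.0102 when Scr mouse 4 was left out of edgeR's fit, and 0.062 when Ant-134 mouse 4 was left out. Of the 150-base windows of the Hsp90aa1 transcript 36.2% occur in transcripts of 3 other genes, and with their counts added, a choice made after the values were seen, the log2 fold change was 0.090.

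Among the cytosolic HSP70 genes, Hspa1b differed between the groups more than Hspa1a or Hspa8 did in size, although these differences in size were not themselves tested. Hspa1a and Hspa1b are adjacent genes that encode nearly the same inducible HSP70, which refolds damaged proteins and is a marker of cell stress. Their promoters, taken from RefSeq (GRCm38.p6) as 250 bases before to 50 after the start, are shown because the genes are near-identical copies. They lie at chr17:34972107-34972406 and chr17:34959189-34959488, both on the minus strand, and capitals mark the letters GAANNTTC of a heat shock element, to which HSF1 binds.
Hspa1a: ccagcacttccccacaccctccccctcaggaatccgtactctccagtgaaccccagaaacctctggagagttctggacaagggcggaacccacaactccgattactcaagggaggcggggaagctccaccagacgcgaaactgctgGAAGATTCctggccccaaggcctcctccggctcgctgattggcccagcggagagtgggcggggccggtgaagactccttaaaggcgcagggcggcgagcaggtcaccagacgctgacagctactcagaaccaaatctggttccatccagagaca
Hspa1b: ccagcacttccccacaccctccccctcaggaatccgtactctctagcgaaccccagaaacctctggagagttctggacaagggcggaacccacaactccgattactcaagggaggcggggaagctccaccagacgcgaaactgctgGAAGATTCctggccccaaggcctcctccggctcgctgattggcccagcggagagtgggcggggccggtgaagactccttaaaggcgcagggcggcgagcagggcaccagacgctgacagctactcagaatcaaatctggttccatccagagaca
These windows were the same at 296 of 300 bases and each held the motif once, 104 bases upstream of the start.

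Hspa1b measured 9.54, 7.28, 8.58, 9.86 and 9.70 CPM in Ant-134 mice 1 to 5 and 6.89, 8.13, 7.30 and 7.09 CPM in Scr mice 1 to 4. Of the 5 Ant-134 mice, 4 lay above all Scr mice and mouse 2 lay within the Scr range. Hspa1b had a log2 fold change of 0.29 (SE 0.11, 95% interval 0.055 to 0.52), with an unadjusted p of 0.0185 and an adjusted p of 0.998 in edgeR and an unadjusted p of 0.0116 in DESeq2. Without Scr mouse 1 the unadjusted call was lost, with a log2 fold change of 0.25 and an unadjusted p of 0.0535 in edgeR. It was also lost with the replicate number added to edgeR's fit as a block, with a log2 fold change of 0.25 and an unadjusted p of 0.0772. Hspa1a measured 4.42, 3.95, 4.16, 5.44 and 5.06 CPM in Ant-134 mice and 4.14, 5.30, 5.07 and 3.90 CPM in Scr mice. The groups of Hspa1a covered the same range, with a log2 fold change of -0.0018 (SE 0.14, 95% interval -0.30 to 0.30) and an unadjusted p of 0.990 in edgeR.

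A read can be assigned between these genes only where their transcripts differ, and 38.1% of the 150-base windows of the Hspa1a transcript and 40.5% of those of Hspa1b occur in the other. How reads with more than 1 possible origin were counted is not given in the sources used here, so the split between the pair is uncertain. The counts were therefore also summed, a choice made after the values were seen. The sum was 13.6 ± 1.64 CPM (SD, n = 5) in Ant-134 mice and 11.96 ± 1.18 CPM (SD, n = 4) in Scr mice. The log2 fold change of the sum was 0.18 (SE 0.10) with an unadjusted p of 0.0882 in edgeR, so the unadjusted call of Hspa1b was not kept by the pair together.

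Hspa8, which uncoats clathrin vesicles at synapses besides folding new proteins, varied more than it differed between groups. It stood at 934, 869, 852, 1171 and 1194 CPM in Ant-134 mice and at 1113, 876, 1044 and 843 CPM in Scr mice. High and low mice occurred in both groups, and Ant-134 mice 4 and 5 were the highest of all. The log2 fold change of Hspa8 was 0.051 (SE 0.14, 95% interval -0.26 to 0.36), with an unadjusted p of 0.714 in edgeR, and it was -0.019 without Ant-134 mouse 5. Of the windows of the Hspa8 transcript, 56.0% occur in transcripts of 5 other genes, and adding the counts of those genes left the log2 fold change at 0.051.

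**Figure D2:**
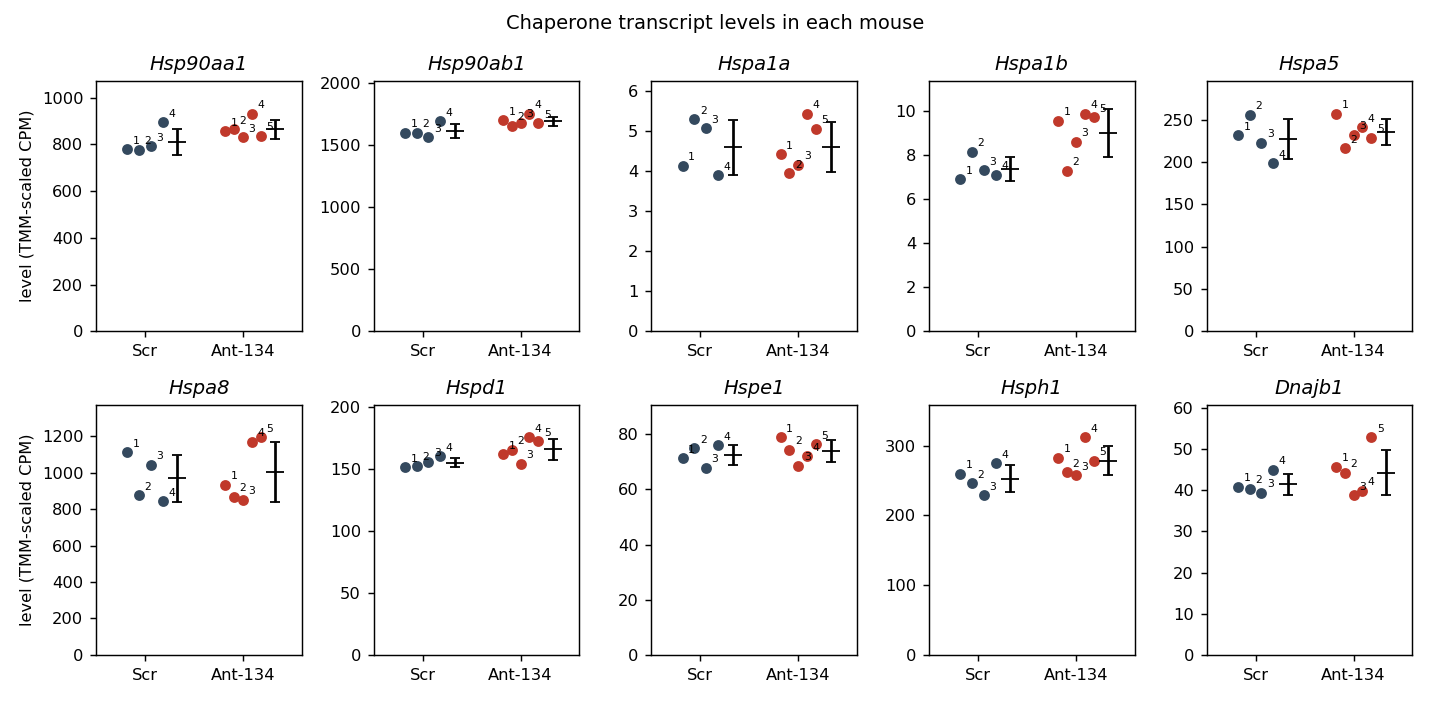
Level of each chaperone gene in each mouse (TMM-scaled CPM, linear axes from 0), with Scr in dark and Ant-134 in red, replicate numbers beside the points, and horizontal ticks and bars for the mean and SD of each group. For Hspa1b and Hspd1, 4 of 5 Ant-134 mice lie above all Scr mice, and in none of the 10 genes are the groups separate.

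Hsph1 and Dnajb1 work with HSP70 in the same cycle, Dnajb1 by delivering clients and stimulating ATP hydrolysis and Hsph1 by exchanging ADP for ATP. Hsph1 measured 283, 262, 258, 312 and 278 CPM in Ant-134 mice and 259.9, 246, 229 and 275 CPM in Scr mice. Ant-134 mice 1, 4 and 5 were above all Scr mice, while mice 2 and 3 were below Scr mouse 4. The log2 fold change of Hsph1 was 0.14 (SE 0.062, 95% interval 0.0075 to 0.27), with an unadjusted p of 0.0399 and an adjusted p of 0.998 in edgeR and an unadjusted p of 0.0305 in DESeq2. The unadjusted call did not depend on all mice alike, since it was lost without Ant-134 mouse 1, 4 or 5 or without Scr mouse 2 or 3, with log2 fold changes of 0.14, 0.097, 0.14, 0.13 and 0.098 in that order. Dnajb1 measured 45.7, 44.3, 38.8, 39.9 and 52.8 CPM in Ant-134 mice and 40.8, 40.3, 39.4 and 45.02 CPM in Scr mice. Ant-134 mice lay both above and below the Scr range, with a log2 fold change of 0.098 (SE 0.081) and an unadjusted p of 0.245 in edgeR, and the log2 fold change was 0.028 without mouse 5.

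Hspa5, also called BiP, binds unfolded proteins in the endoplasmic reticulum and holds the sensors of the unfolded protein response inactive. Hspa5 stood at 257, 216, 232, 241 and 229 CPM in Ant-134 mice and at 232, 256, 223 and 199 CPM in Scr mice. The groups overlapped over most of their range, and Ant-134 mouse 1 and Scr mouse 2 were level at the top. The log2 fold change of Hspa5 was 0.048 (SE 0.067, 95% interval -0.096 to 0.19), with an unadjusted p of 0.485 in edgeR.

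The mitochondrial pair, Hspd1 (HSP60) and Hspe1 (HSP10), forms the chaperonin chamber and its lid in the mitochondrial matrix. Hspd1 measured 162, 165, 154, 175 and 172 CPM in Ant-134 mice and 151, 153, 156 and 160.0 CPM in Scr mice. In Hspd1, 4 of 5 Ant-134 mice were above all Scr mice and mouse 3 lay within their range. For Hspd1 the log2 fold change was 0.098 (SE 0.045), a difference of 7.0%, given with no test because the gene was chosen by it. Hspe1, which was not chosen on its level, measured 78.9, 74.3, 68.5, 72.0 and 76.4 CPM in Ant-134 mice and 71.2, 75.0, 67.9 and 76.0 CPM in Scr mice. Its groups overlapped, with a log2 fold change of 0.029 (SE 0.050, 95% interval -0.078 to 0.14) and an unadjusted p of 0.567 in edgeR. A processed copy, Hspd1-ps3, holds 18.6% of the windows of the Hspd1 transcript, and with its counts added the log2 fold change of Hspd1 was 0.079 (SE 0.044). Hspd1 and Hspe1 overlap by 112 bases on opposite strands, where reads counted without strand cannot be told apart.

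Set side by side, 9 of the 10 genes had a log2 fold change above 0 and their median was 0.080, against 0.0026 over all genes tested, of which 51.2% were above 0. Between 7 (without Scr mouse 4) and all 10 were above 0 when a mouse was left out, with 8 without Ant-134 mouse 4 or 5. The members include 2 genes chosen as higher, so this count and median carry no test. Of the 8 genes listed by function, which were also put together with earlier results of these data known, 2 (Hspa1b and Hsph1) had an unadjusted p under 0.05 and higher levels in Ant-134 mice, where 1.49% of all genes did. None of the 8 was lower with an unadjusted p under 0.05, where 2.69% of all genes were. After adjustment over all genes 0 of the 8 passed in edgeR, as did 0% of all genes, whereas DESeq2 called 0.0648% of the genes to which it gave an adjusted p and 0 of the 8. DESeq2 called 2 of the 8 unadjusted, both higher, where it called 1.08% of all genes higher and 1.66% lower. In no member was every Ant-134 mouse above every Scr mouse, which held for 0.647% of all genes, nor every Ant-134 mouse below, which held for 0.895%. Leaving out Scr mouse 4 gave 3 unadjusted calls among the 8, the third being Hsp90aa1, where 4.84% of all genes were called in either direction. Leaving out any other mouse gave 1 or 2, where between 3.14% and 4.97% of all genes were called. The 10 genes together made up 0.412% to 0.471% of the scaled counts in Ant-134 mice and 0.403% to 0.425% in Scr mice, so the ranges overlapped. Ant-134 mouse 4 had the highest level of 6 genes, namely Hsp90aa1, Hsp90ab1, Hspa1a, Hspa1b, Hspd1 and Hsph1.

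**Figure D3:**
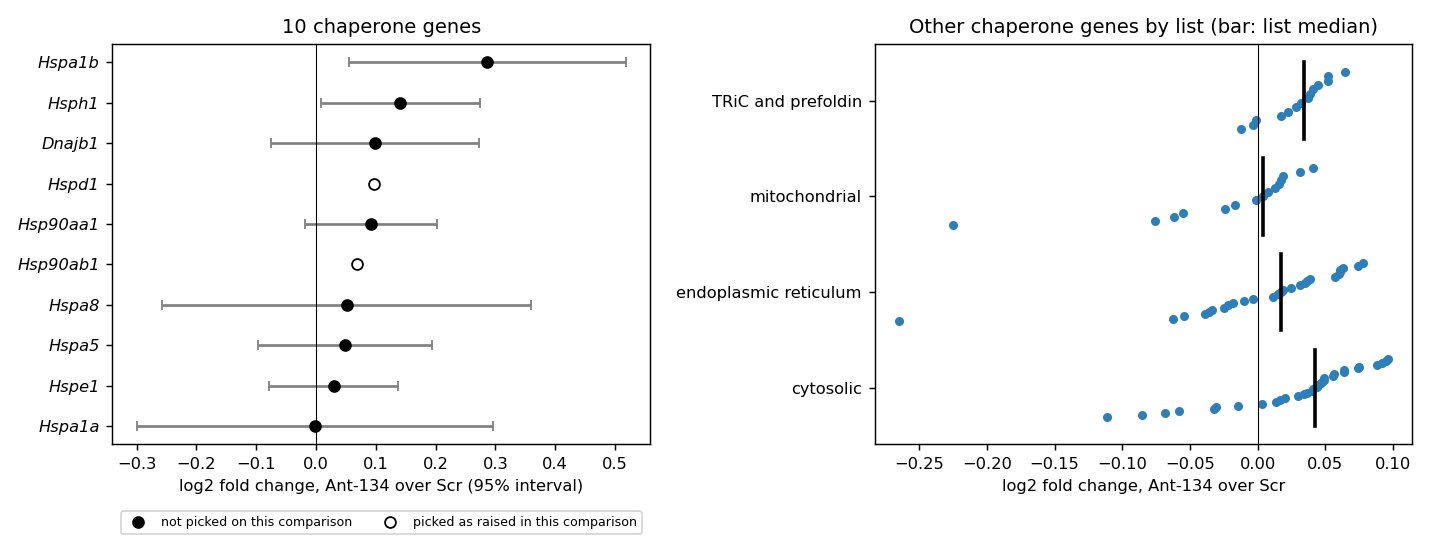
Left, log2 fold change of Ant-134 over Scr for the 10 genes, with its 95% interval for 8 of them (open circles, with no interval: the 2 genes picked as raised in this comparison). Right, log2 fold changes of 88 other chaperone genes in 4 lists, each point 1 gene and each bar a list median. Among the 10 genes on the left, Hspa1b has the highest estimate, at 0.29, and Hspa1a the lowest, at -0.0018. On the right, the list medians lie between 0.0042 and 0.043, and single genes run from -0.27 to 0.096.

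The other chaperone genes, in 4 lists by compartment, were all measured. In edgeR 0 of them passed an unadjusted p of 0.05 in either direction, where 4.18% of all genes did, nor did any pass after adjustment (smallest adjusted p 0.998). DESeq2 called 1 of these 88 genes unadjusted, Canx, where it called 2.74% of all genes in either direction. With a mouse left out, unadjusted calls in edgeR numbered 3 in the cytosolic list without Ant-134 mouse 3 or without Scr mouse 4, 2 in the endoplasmic reticulum list without Ant-134 mouse 5 and 1 without Scr mouse 2, and 1 in the mitochondrial list without Scr mouse 1. The shares of all genes called in either direction in these fits were 4.24% without Ant-134 mouse 3, 4.84% without Scr mouse 4, 3.97% without Ant-134 mouse 5, 4.09% without Scr mouse 2 and 3.79% without Scr mouse 1. Of 32 cytosolic chaperones and co-chaperones 25 were above 0, with a median log2 fold change of 0.043 and a range from -0.11 to 0.096. The 2 most abundant of these by mean FPKM were Hsbp1, a binding partner of HSF1, at a log2 fold change of -0.014 (SE 0.049), and Bag1, a nucleotide exchange factor, at 0.041 (SE 0.060). Of 27 endoplasmic reticulum chaperones and unfolded protein response genes 16 were above 0, with a median of 0.017 and a range from -0.27 to 0.078. The lectin chaperone Calr was at 0.017 (SE 0.056). Canx, the membrane-bound lectin chaperone, was at 321 ± 9.75 CPM in Ant-134 mice and 305 ± 1.29 CPM in Scr mice, and all Ant-134 mice lay above all Scr mice. This held for 1 of the 27 genes of this list, 0 genes of the other lists and 0.647% of all genes. The log2 fold change of Canx was 0.074 (SE 0.039), with an unadjusted p of 0.0754 in edgeR and 0.0240 in DESeq2.

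Of 15 mitochondrial chaperones and proteases 8 were above 0, with a median of 0.0042 and a range from -0.23 to 0.041. The mitochondrial HSP70 Hspa9 was at 0.031 (SE 0.047) and the protease subunit Clpp at -0.024 (SE 0.078). Of 14 subunits of the TRiC and prefoldin complexes, which fold actin and tubulin, 11 were above 0 with a median of 0.034 and a range from -0.012 to 0.065. Their most abundant members by mean FPKM, Cct5 and Pfdn5, were at 0.023 (SE 0.041) and 0.039 (SE 0.064).

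Across the 9 mice the members did not vary as 1 block. Pearson's r of log2(CPM + 1) was positive in 37 of the 45 pairs, with a median of 0.32 and a range from -0.27 to 0.92. The 9 libraries share their depth scaling and both groups. In the two-sided exact permutation test of Pearson's r, 2 pairs passed Benjamini-Hochberg adjustment over the 45, and both contain Hsp90ab1, whose selected difference between the groups enters that test. With each gene centred on its group means and mice permuted only within groups, a test added after the values were seen, 0 pairs passed adjustment (smallest adjusted p 0.203) and 6 had an exact permutation p under 0.05. For Spearman's rho 0 pairs passed, with a smallest adjusted p of 0.138. Hsp90ab1 and Hsph1 had r = 0.92 and rho = 0.83, and r was 0.78 without the 2 mice farthest from the median of Hsp90ab1. Centred on the groups their r was 0.88 (exact permutation p = 0.00451, adjusted 0.203). Hsp90aa1 and Hsp90ab1 had r = 0.90 and rho = 0.78, and r was 0.82 without the 2 farthest mice. Centred on the groups it was 0.87 (exact permutation p = 0.0438, adjusted 0.371).

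Pairs that work together or are copies of each other were looked at next, without a test of the difference from the pairs above. Hspd1 and Hspe1, which are made from opposite strands of 1 short region, had r = 0.37, and 0.31 when centred on the groups. Hspa1a and Hspa1b had r = 0.55 (exact permutation p = 0.121), rho = 0.70 (exact permutation p = 0.0433, adjusted 0.278) and a centred r of 0.79 (exact permutation p = 0.0108, adjusted 0.242). The HSP70 partners Hsph1 and Dnajb1 had r = 0.35, and Hspa8 and Dnajb1 had r = 0.21. None of these 4 pairs passed adjustment over the 45.

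**Figure D4:**
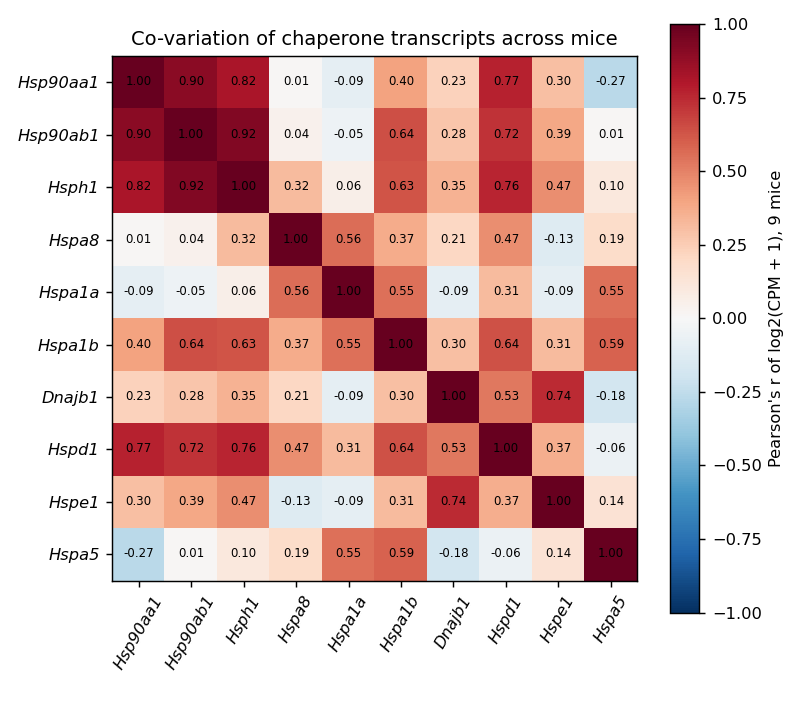
Pearson's r of log2(CPM + 1) over 9 mice for each pair of the 10 genes, from -1 (blue) to 1 (red). Hsp90aa1, Hsp90ab1 and Hsph1 had r between 0.82 and 0.92 with each other, while Hspa5 had r between -0.27 and 0.10 with these 3 genes.

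Among the 12343 genes with a mean of at least 5 CPM, 0.778% were chaperone genes of the lists above or members. Of the 10 genes most like Hspa5 by Pearson's r over the 9 mice, 3 were endoplasmic reticulum chaperone genes, namely the disulfide isomerase Pdia6 (r = 0.99), Sdf2l1 (r = 0.88) and the disulfide isomerase Pdia4 (r = 0.87). Hsp90aa1 was most like Hspa4 (r = 0.97), an HSP70-family nucleotide exchange factor. The 10 genes most like Hspa1a included the small heat shock protein Hspb1 (r = 0.85), those most like Hspa8 included Hyou1 (r = 0.89) and those most like Dnajb1 included Herpud1 (r = 0.92). For the other 5 members 0 of the 10 most alike genes were in the lists. These are descriptions over 9 libraries, in which many genes reach such values.

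The promoters of the other members differed in the motifs they held. RefSeq windows were found for 7 of the 10 genes, with Hsp90aa1, Hsp90ab1 and Hspa8 having none in the table. The letters GAANNTTC or TTCNNGAA, which read the same on both strands and may overlap each other, occurred at least once in 15.1% of all 32851 promoter windows and at least 3 times in 0.256%. The Hspe1 window at chr1:55087898-55088197 on the plus strand is shown for its 3 overlapping matches, in capitals, and 1 of the 2 windows of Hspd1, on the minus strand, covers the same block while the other holds 0 matches. That of Hsph1 at chr5:149636266-149636565 on the minus strand also held 3, and a second, overlapping window of this gene held the same 3. The window of Hspa5 at chr2:34771840-34772139 on the plus strand held 0 heat shock matches, and its capitals mark an endoplasmic reticulum stress element (ERSE, the letters CCAAT, any 9 bases and CCACG), searched on both strands and found in 0.119% of all windows. The ERSE was added to the search with the data known.
Hspe1: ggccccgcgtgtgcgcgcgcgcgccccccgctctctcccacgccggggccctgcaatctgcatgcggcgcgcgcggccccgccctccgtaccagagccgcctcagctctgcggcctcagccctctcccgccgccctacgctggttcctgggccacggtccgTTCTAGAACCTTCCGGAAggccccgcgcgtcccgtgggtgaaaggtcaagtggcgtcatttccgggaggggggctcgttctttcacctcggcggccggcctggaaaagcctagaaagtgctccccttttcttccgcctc
Hsph1: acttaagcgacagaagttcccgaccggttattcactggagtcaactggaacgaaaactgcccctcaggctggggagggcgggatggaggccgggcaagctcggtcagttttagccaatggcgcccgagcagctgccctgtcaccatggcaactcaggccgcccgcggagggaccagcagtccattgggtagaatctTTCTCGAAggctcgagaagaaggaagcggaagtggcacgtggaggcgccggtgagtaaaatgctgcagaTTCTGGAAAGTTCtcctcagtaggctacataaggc
Hspa5: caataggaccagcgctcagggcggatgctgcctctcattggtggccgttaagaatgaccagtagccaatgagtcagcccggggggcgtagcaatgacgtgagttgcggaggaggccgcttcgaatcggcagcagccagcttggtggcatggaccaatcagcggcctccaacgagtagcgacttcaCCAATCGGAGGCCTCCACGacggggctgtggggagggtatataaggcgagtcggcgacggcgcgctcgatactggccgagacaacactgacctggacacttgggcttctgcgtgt
The block in Hspe1 began 89 bases upstream of its start, and in the Hspd1 window that holds it the matches began 144, 139 and 134 bases upstream. In Hsph1 the matches began 54 bases upstream and 16 and 21 bases downstream of the start, and counted from the start of its second window they began 33 bases upstream and 37 and 42 bases downstream. Dnajb1 held 0 matches in either of its windows. Matches are given as letters only, and no binding was measured.

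Members were also searched for miR-134 sites, since Ant-134 is directed at this microRNA. The mature miR-134-5p, from RefSeq at chr12:109734145-109734166 (GRCm38.p6, plus strand), is shown with its seed, bases 2 to 8, in capitals.
miR-134-5p: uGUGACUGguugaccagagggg
The site letters CAGTCAC or AGTCACA occurred once among the 10 members, in Dnajb1, when the longest 3' UTR of each gene was searched, and in 19.5% of the 15278 tested genes with a 3' UTR. The Dnajb1 site, with its letters in capitals, is shown as the single match.
Dnajb1 site: ctggcttaCAGTCACagtacttg
As given above, Dnajb1 was at 44.3 ± 5.58 CPM (SD, n = 5) in Ant-134 mice and 41.4 ± 2.49 CPM (SD, n = 4) in Scr mice, with overlapping groups.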

How the data were processed

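Poly-A RNA-seq libraries of the hippocampus of 9 mice were analysed, with group and replicate taken from the sample labels. Per the labels and the study's methods, the authors used CASAVA 1.8, aligned paired-end reads to mm10 (GRCm38) with HISAT2 2.0.5, counted reads per gene with featureCounts 1.5.0-p3 and deposited the counts without normalization. The authors also deposited FPKM values, which scale counts to gene length and library total. The annotation release, the strand setting and the treatment of reads with several origins are not given in the sources used here. The study's tool, DESeq2, was run as an alternative.

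Counts were analysed in R 4.3.3 with edgeR 4.0.16: filterByExpr with a minimum count of 10, TMM scaling, and the robust quasi-likelihood test of Ant-134 against Scr with no covariate. P values were adjusted by Benjamini-Hochberg over all 19782 tested genes, and the threshold was 0.05. CPM values use the TMM-scaled library sizes. The depth puts 3 counts at 0.0715 to 0.105 CPM, a floor that covers counting error only, and between 117 and 224 reads were counted on Hspa1a, the least abundant member. Alternatives were DESeq2 1.42.0, its size factors, other filters, no robust estimation, a replicate block, limma 3.58.1 on FPKM, and leaving out each mouse. For limma the values were log2(FPKM + 1), or log2(FPKM + 0.1), of genes averaging 0.1 FPKM or more, and once of all genes above 0; a pseudocount shrinks the fold changes of low genes. The scripts were tested on simulated data. Libraries of a group differed by more than counting noise. Windows of 150 bases were compared among GENCODE M21 transcripts.

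The members and lists were chosen with earlier results of these data known. The genes named are the members, in each list those with an unadjusted p under 0.05 (at most the 5 smallest) and the 2 with the highest mean FPKM, and list genes among the 10 most like a member.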

Additional observations from a re-analysis of the deposited data

Results flagged for a closer look

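In 7 of 50 groups of values tested, 1 mouse stood apart from the rest of its group by Dixon's criterion, where chance gives about 2.5 of 50. Among the members this was Hsp90aa1, highest in Scr mouse 4 at 894.14 CPM against 776.76 to 792.89 CPM in the other Scr mice. The other 6 were summed levels of marker lists. Activity-regulated genes were highest in Ant-134 mouse 5, at 663.71 CPM against 437.27 to 489.72 CPM, and this mouse also had the highest Hspa8 and Dnajb1. Astrocyte markers were highest in Scr mouse 1, at 4852.9 CPM against 4003.3 to 4063.4 CPM, as were microglial markers, at 322.05 CPM against 279.03 to 283.84 CPM, and this mouse had the lowest Hspa1b and Hspd1. Choroid plexus markers were highest in Ant-134 mouse 1, at 2582.6 CPM against 67.496 to 680.14 CPM, a mouse that also had the highest Hspa5 and Hspe1. In Ant-134 mouse 3, erythrocyte markers stood at 403.07 CPM against 69.016 to 115.66 CPM and thalamus markers at 121.72 CPM against 70.051 to 83.379 CPM, and this mouse had the lowest Dnajb1. The part of these differences in the members' levels was not tested.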

How the results depend on the processing

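The median log2 fold change of the 10 members stayed between 0.058 and 0.10 when each mouse was left out and between 0.067 and 0.085 under the other alternatives. All genes with an unadjusted p under 0.05 numbered 294 higher and 533 lower; without a count filter they numbered 564 and 1211, by limma on log2(FPKM + 1) over all genes above 0 they numbered 678 and 1035, and leaving out 1 mouse gave 194 to 386 higher and 435 to 704 lower. When a mouse was left out, the list medians were between 0.033 and 0.051 for the cytosolic list, -0.034 (without Scr mouse 1) and 0.018 for the mitochondrial list, -0.00036 (without Ant-134 mouse 1) and 0.037 for the endoplasmic reticulum list, and 0.0041 (without Ant-134 mouse 5) and 0.050 for TRiC and prefoldin. After adjustment 14 genes passed in edgeR without a count filter, 2 with the replicate block, 1 by limma over all genes above 0, and 0 to 17 when a mouse was left out. Among the members, Hspa1b kept an unadjusted edgeR p under 0.05 in 8 of the fits that left out a mouse, with log2 fold changes from 0.25 to 0.36. Without Scr mouse 1 its unadjusted p in edgeR was 0.0535. Hsph1 kept it in 4 of 9 such fits, with log2 fold changes from 0.097 to 0.19 over all 9, and lost it by limma on FPKM. Its unadjusted p by limma was between 0.0694 and 0.0952. With a mouse left out, Hspa1a ran from -0.073 (without Scr mouse 4) to 0.075 (without Scr mouse 2) and kept its sign in 8 of its 19 alternatives, Hspa8 from -0.019 (without Ant-134 mouse 5) to 0.12 (without Scr mouse 1), Hspa5 from -0.010 (without Scr mouse 4) to 0.11 (without Scr mouse 2), Hspe1 from -0.00053 (without Scr mouse 3) to 0.055 (without Ant-134 mouse 3) and Dnajb1 from 0.028 (without Ant-134 mouse 5) to 0.14 (without Scr mouse 4). With the replicate block 8 of the 10 members were above 0. Whether the replicate numbers pair the mice is not given in the labels, and the study describes the Scr-treated mice as littermates. Same-numbered mice had correlations of deviations of -0.16, -0.072, -0.062 and 0.073, and so few pairs cannot decide it. With the replicate number as a block, 342 genes were higher and 466 lower, and the unadjusted p was 0.0357 for Hsp90aa1, 0.0772 for Hspa1b and 0.00724 for Hsph1. Of the 45 pairs of members 2 passed adjustment with the groups pooled and 0 with the groups centred. Protein identities, which had been planned, were not computed. The least abundant pair had between 117 and 224 reads for Hspa1a and between 220 and 344 for Hspa1b, and the part of read counts in its precision was not tested. SEs were 0.139 for Hspa1a, 0.108 for Hspa1b and 0.135 for the far more abundant Hspa8. The causes of the changes given here were not tested.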
